A study of Danio rerio with 12 samples.

Results

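Collagens and other extracellular matrix genes were followed as a group of 43 member symbols, which matched 44 of the 32520 genes in the count tables. The symbols were chosen by name: fibrillar, network and fibril-associated collagens, matrix glycoproteins, small leucine-rich proteoglycans, crosslinking enzymes, matrix proteases with their inhibitors, and the laminins, nidogens and perlecan of basement membranes. They were chosen with earlier results of these data known, as were all gene lists used below. Shares of them called are therefore set beside those of all genes and not read as an excess of matrix genes. The symbol tnc matched a pair of genes that the name table lists as TNC, ENSDARG00000078362 and ENSDARG00000021948, and both were kept. The symbol thbs1a was taken as the gene listed as THBS1, ENSDARG00000103775, because thbs1b was found separately. The other 41 symbols matched 1 gene each.

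Muscle fibres are held in a matrix with several layers. Each fibre is wrapped in a basement membrane, in which laminin and collagen IV networks are bridged by nidogens and perlecan, and collagen VI lies just outside it. Further out, fibrils of collagens I and V, coated by collagen XII and small leucine-rich proteoglycans and stiffened by lysyl oxidases, carry force to tendons and, in the trunk of a fish, to the connective sheets (myosepta) between muscle segments. Desmin is the intermediate filament that ties neighbouring myofibrils to each other and to the fibre surface.

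RNA was sequenced from the extraocular muscles (EOM), which turn the eyeball, and from trunk muscle of zebrafish of the AB strain aged 5 months. The 4 groups were WT EOM, desma-/-;desmb-/- EOM, WT trunk and desma-/-;desmb-/- trunk, with 3 libraries each, and both desmin genes were mutated in every mutant fish. The WT line was the AB line in which the double mutant was made, and the sample labels record no other allele or treatment. The series text instead speaks of a knock-down of desmin and of more than 1 time point, and the sample labels were followed. The labels number the samples as groups and do not say whether a library is 1 fish or a pool, so p-values measure only the spread between these libraries, which may be partly technical.

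Each library held 64.5 to 91.1 M reads on the strand of a gene (M for mega). Levels are normalised read counts (CPM, counts relative to the scaled depth of a library), set on 1 scale for the 12 libraries and not corrected for gene length, so they are compared between libraries and not between genes. The desma reads followed the labels: WT libraries held 509 to 1336 CPM, and mutant libraries held 18.2 to 62.7 CPM. The partner desmb was at most 0.285 CPM in any library and gave no check. The summed level of 23 posterior Hox genes, which mark the trunk, was 77.1 to 128 CPM in trunk and at most 0.309 CPM in EOM. The labels call the samples myofibres, and the 11 fibre markers found summed to 42660 to 305500 CPM, but markers of fibroblasts, vessels, leukocytes, glia and epidermis were present in every group, so each library holds the RNA of a dissected tissue. In such tissue, fewer cells of a type and less RNA per cell cannot be told apart.

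A few libraries stood apart in these genes and are named wherever a result rests on them. Mutant trunk 2 lay more than 2-fold below the other 11 libraries in 13.1% of all genes and in 6 of 43 matrix genes: col5a3a, col4a1, col4a2, bgnb, lamc1 and hspg2. Mutant EOM 2 did so in 8.11% of all genes and in 1 matrix gene, postna. These were the libraries with the fewest detected genes, 19402 and 19431, against 21556 to 24467 in the other 10. WT trunk 3 lay that far below the others in 0.369% of all genes and in no matrix gene. Within its group, however, it was the lowest for 41 of 43 matrix genes, against 37.8% of all genes. For some matrix genes, among them col1a1b, col1a2, sparc and dcn, it was the lowest of all 12 libraries. The map of all matrix genes by library shows these columns.

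**Figure D1:**
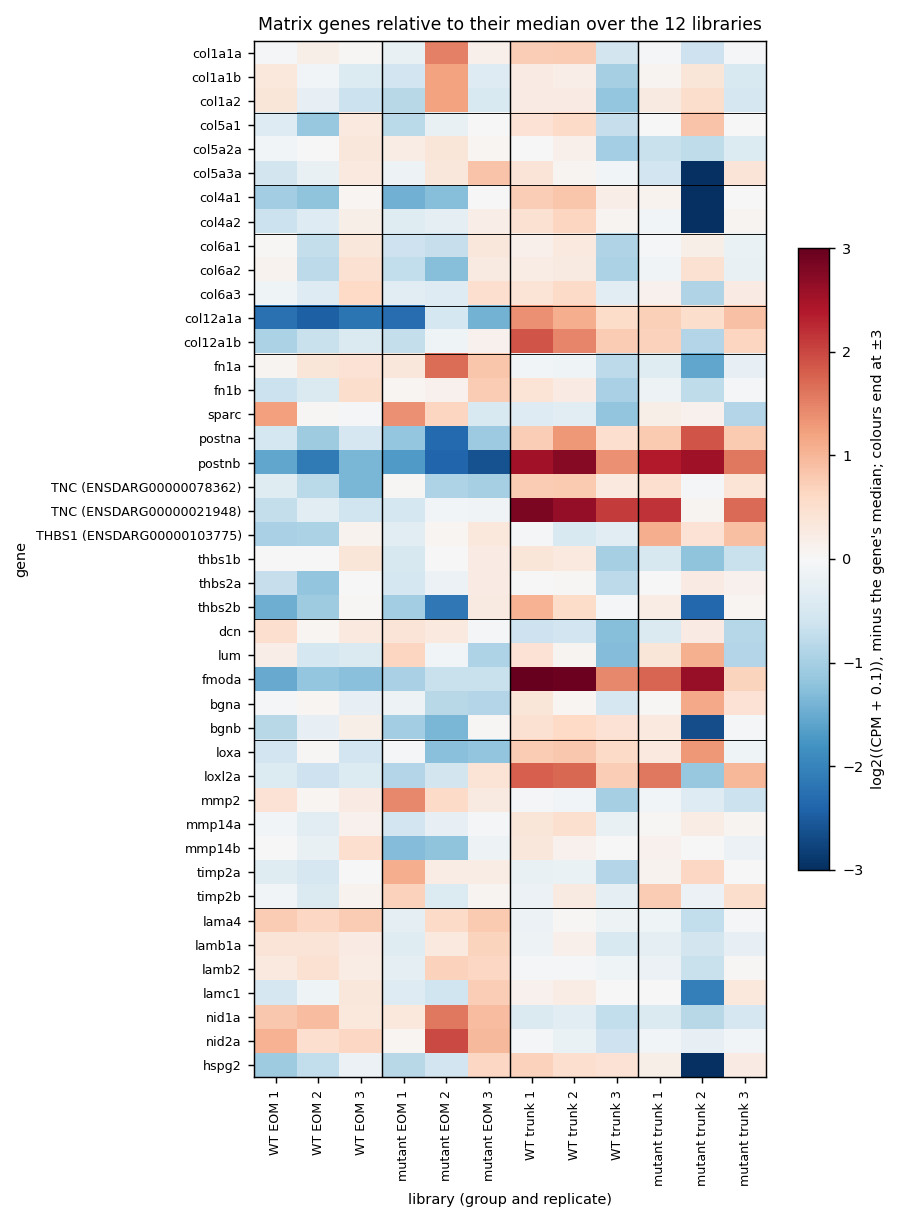
Level of each matrix gene in the 12 libraries as log2 of CPM plus 0.1, minus the gene's own median over the libraries; red is above and blue below that median, and horizontal lines separate the roles. The trunk columns are mostly red for col12a1a, postnb and fmoda, while mutant trunk 2 is dark blue for col4a1, col4a2, col5a3a and hspg2.

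The clearest differences lay between the tissues. In WT fish, 16 of the 43 matrix genes tested differed between trunk and EOM, 12 higher and 4 lower in trunk, which is 37.2% of them against 27.0% of all genes tested (13.8% higher and 13.1% lower). Those higher in trunk were both collagen XII genes, both periostins, both TNC genes, thbs2b, fmoda, loxa, loxl2a, col4a1 and hspg2. Those lower in trunk were dcn, lama4, nid1a and nid2a. The median log2 fold change of the 43 genes was 0.20, against -0.01 over all genes. The groups did not overlap for 12 genes that were higher and 9 that were lower in trunk, against 44.7% of all genes (23.0% higher and 21.7% lower). Collagens I, V and VI did not pass the test in either direction.

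Collagen XII coats collagen fibrils and is found in tendon and fascia. The level of col12a1a (ENSDARG00000078322.4) was 16.7, 14.3 and 17.3 CPM in WT EOM, and 204, 167.5 and 116 CPM in WT trunk. Every trunk library lay far above every EOM library, with a log2 fold change of 3.35 ± 0.28 (± SE here and throughout, adjusted p = 3.81e-05). The second copy, col12a1b (ENSDARG00000019601.12), read 3.76, 4.59 and 5.385 CPM in WT EOM and 27.6, 20.6 and 12.5 CPM in WT trunk. The groups again stayed apart, with a log2 fold change of 2.16 ± 0.30 (adjusted p = 0.000786).

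Periostins are matricellular proteins of collagen-rich tissue. In WT EOM the level of postnb (ENSDARG00000104267.3) was 24.8, 16.97 and 28.3 CPM, and in WT trunk it was 423, 489 and 191 CPM. Even the lowest trunk library, WT trunk 3, stood above every EOM library, and the log2 fold change was 4.0 ± 0.41 (adjusted p = 0.000143). The copy postna (ENSDARG00000043806.7) rose from 21.2, 14.8 and 21.8 CPM in WT EOM to 51.7, 75.5 and 43.55 CPM in WT trunk. Its groups did not overlap and its log2 fold change was 1.59 ± 0.27 (adjusted p = 0.00237).

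Tenascin C is a large glycoprotein of tendons and of matrix under mechanical load. The gene listed as TNC with ID ENSDARG00000021948 read 2.13, 2.87 and 2.35 CPM in WT EOM and 26.1, 22.99 and 15.8 CPM in WT trunk. All trunk libraries were above all EOM libraries, with a log2 fold change of 3.15 ± 0.26 (adjusted p = 3.85e-05). The other, ENSDARG00000078362, read 15.01, 11.01 and 7.44 CPM in WT EOM and 33.1, 33.4 and 23.9 CPM in WT trunk, without overlap and with a smaller log2 fold change of 1.45 ± 0.28 (adjusted p = 0.00507). Thrombospondins bind collagen, calcium and growth factors. Of the 4 member thrombospondin genes tested, thbs2b (ENSDARG00000073810.7) passed, at 1.30 ± 0.40 on the log2 scale (adjusted p = 0.0363). Its groups overlapped, because WT EOM 3, at 29.2 CPM, was above WT trunk 3, at 27.9 CPM. Further thrombospondin genes lie outside the members, including thbs4a, which was also higher in WT trunk, at 1.08 ± 0.30 (adjusted p = 0.0265). That call was lost in a joint fit of all 12 libraries (adjusted p = 0.0918) and with library totals alone (adjusted p = 0.198). It was also lost without WT EOM 1, WT trunk 1 or WT trunk 3 (adjusted p = 0.0914, 0.0971 and 0.0523).

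Fibronectin and sparc genes did not pass. Fibronectin, the cell-adhesive glycoprotein on which collagen fibrils are laid down, is encoded by fn1a and fn1b. The level of fn1a was 42.0, 50.9 and 53.4 CPM in WT EOM and 37.8, 36.7 and 23.1 CPM in WT trunk, which do not overlap, with a log2 fold change of -0.57 ± 0.24 (adjusted p = 0.111). The collagen-binding sparc read 1924, 846 and 794.5 CPM in WT EOM and 623.5, 663 and 364 CPM in WT trunk. These too did not overlap, at -1.1 ± 0.43 (adjusted p = 0.0878), and WT EOM 1 stood far above the rest of its group.

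Small leucine-rich proteoglycans sit on collagen fibrils and set their thickness. Fibromodulin (fmoda, ENSDARG00000044895.5) was near absent from WT EOM, with 0, 3 and 2 reads in the 3 libraries, and had 176, 153 and 58 reads in WT trunk. Taking 3 reads as the floor in each EOM library, its level in trunk was at least 54.4-fold higher (fitted log2 fold change 6.57 ± 0.73, adjusted p = 0.000221). Its copy fmodb had at most 1 read in any library and was not tested anywhere. Decorin (dcn, ENSDARG00000012066.11) was lower in trunk, at 143, 148.5 and 90.9 CPM against 312, 229 and 271 CPM in WT EOM. The groups did not overlap and the log2 fold change was -1.07 ± 0.28 (adjusted p = 0.02). The remaining lum, bgna and bgnb had log2 fold changes of 0.15, 0.10 and 0.80 and did not pass.

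Of the member enzymes, the crosslinking lysyl oxidase genes loxl2a and loxa passed and the protease genes did not. Further lysyl oxidase genes belong to a wider list of collagen processing and crosslinking genes. Of its 30 genes tested, 6 were higher and 8 lower in trunk, against 13.8% and 13.1% of all genes. The level of loxl2a (ENSDARG00000044010.8) was 9.82, 8.56 and 9.93 CPM in WT EOM and 45.6, 44.0 and 22.1 CPM in WT trunk. All trunk libraries were higher, with a log2 fold change of 2.00 ± 0.29 (adjusted p = 0.000942). For loxa (ENSDARG00000003259.11) the values were 4.81, 7.49 and 4.86 CPM against 12.3, 12.9 and 10.8 CPM, again without overlap, at 1.08 ± 0.24 (adjusted p = 0.00906). The gelatinase gene mmp2, the membrane protease genes mmp14a and mmp14b, and the inhibitor genes timp2a and timp2b had log2 fold changes from -0.56 to 0.35.

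The basement membrane genes split. Nidogens bridge the laminin and collagen IV networks, and both member nidogen genes were lower in trunk. Outside the members, nid1b averaged 20.8 CPM in WT EOM and 12.8 CPM in WT trunk, and nid2b 0.175 and 0.233 CPM. The level of nid1a (ENSDARG00000068710.7) was 159, 173 and 114 CPM in WT EOM and 67.5, 73.1 and 54.2 CPM in WT trunk, with no overlap and a log2 fold change of -1.18 ± 0.26 (adjusted p = 0.00832). The level of nid2a (ENSDARG00000075707.6) was 55.1, 38.3 and 41.5 CPM against 25.8, 23.5 and 17.5 CPM, at -1.0 ± 0.24 (adjusted p = 0.0121). The laminin chain lama4 (ENSDARG00000020785.10), of vessel and peripheral basement membranes, read 238, 219 and 239 CPM in WT EOM and 124, 146 and 127 CPM in WT trunk. Its EOM libraries were tightly grouped above the trunk ones, at -0.79 ± 0.23 (adjusted p = 0.0315). The other laminin chains, lamb1a, lamb2 and lamc1, had log2 fold changes of -0.45, -0.39 and 0.20 and did not pass.

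Perlecan and collagen IV went up instead. Perlecan (hspg2, ENSDARG00000076564.5) is the large heparan sulfate proteoglycan of basement membranes; it read 29.8, 37.3 and 55.6 CPM in WT EOM and 88.75 and 84.6 CPM in WT trunk 2 and 3, with WT trunk 1 higher still. The groups were apart, with a log2 fold change of 1.18 ± 0.26 (adjusted p = 0.0088). The collagen IV chain col4a1 (ENSDARG00000055009.8) read 46.8, 41.9 and 99.9 CPM in WT EOM and 161, 173 and 110.6 CPM in WT trunk. WT EOM 3 came close to WT trunk 3 but the groups did not overlap, at 1.26 ± 0.35 (adjusted p = 0.0261). Its partner col4a2 was at 0.68 ± 0.28 and did not pass (adjusted p = 0.103).

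The fibril and filament collagens I, V and VI showed small differences between the tissues. For collagen I, the main fibril collagen, the summed level of col1a1a, col1a1b and col1a2 was 1564, 1188 and 954 CPM in WT EOM and 1620.0, 1596 and 649.6 CPM in WT trunk. The groups overlapped fully, and their log2 fold changes ran from -0.04 to 0.39. Collagen V, which nucleates those fibrils, ran from -0.29 to 0.52 over col5a1, col5a2a and col5a3a, and collagen VI, the beaded filament around fibres, from -0.04 to 0.20 over col6a1, col6a2 and col6a3. WT trunk 3 was the lowest library of its group for all 3 collagen sums.

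**Figure D2:**
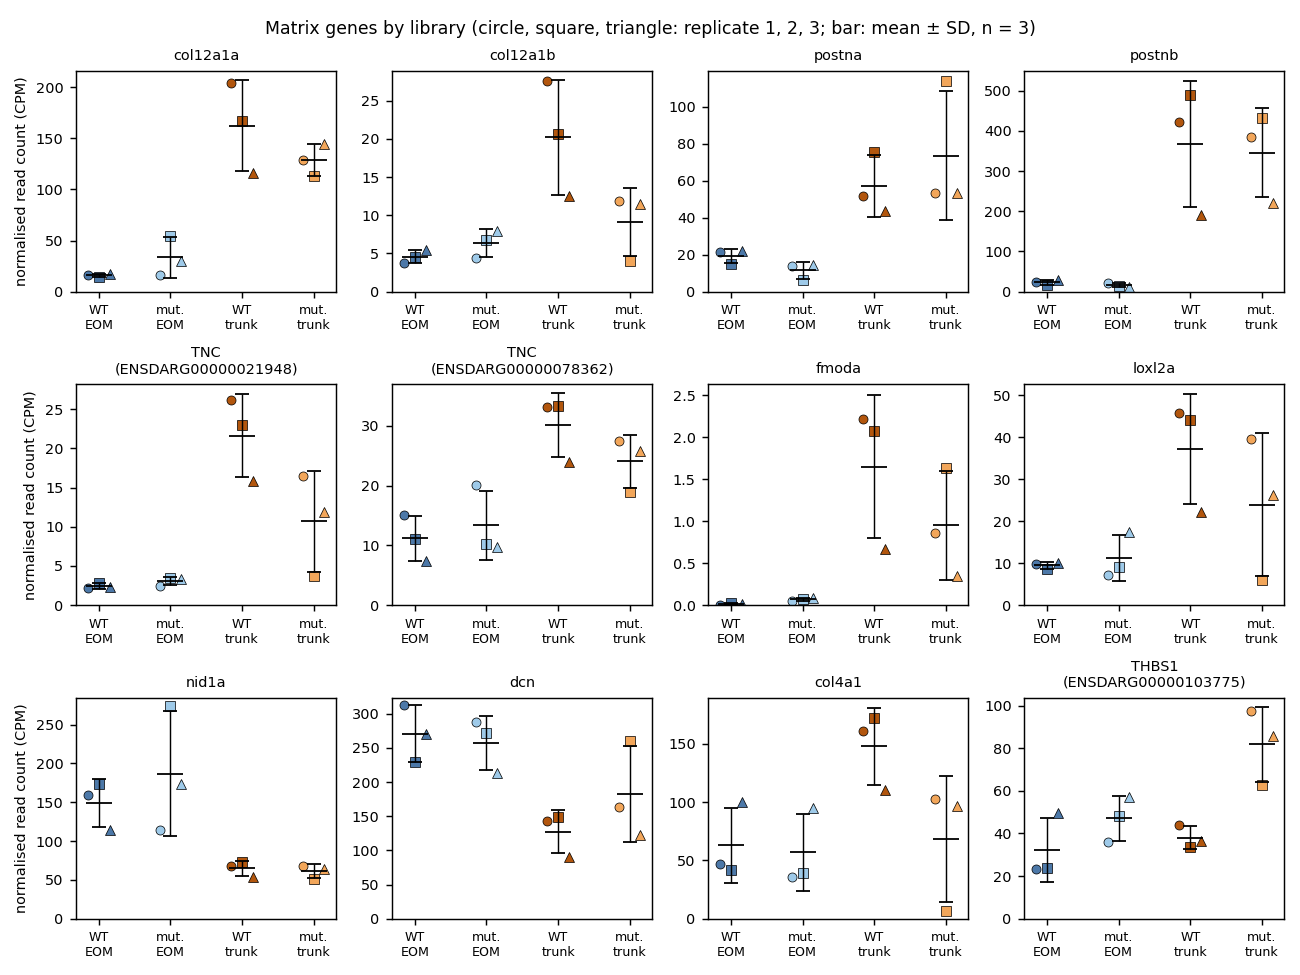
Normalised read count (CPM, linear axes from 0) of 12 matrix genes in the 4 groups, with a circle, square and triangle for replicates 1, 2 and 3 and bars for the mean ± SD (n = 3). The trunk groups stand above the EOM groups for col12a1a, postna and postnb, the order is the opposite for nid1a, and mutant trunk 2 drops to 6.32 CPM for col4a1.

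Of the 16 WT calls, 9 held in every alternative run: col12a1a, col12a1b, postna, postnb, both TNC genes, fmoda, loxl2a and nid1a. The other 7 lost the call in a joint fit of all 12 libraries, which called 9.82% of all genes. Leaving out 1 library gave 12 to 20 calls, while 15.6 to 39.5% of all genes were called. Of the 16, col4a1, dcn, lama4, nid2a, hspg2 and thbs2b each failed without at least 1 library. For dcn the adjusted p was 0.0578, 0.058 and 0.0925 without WT trunk 1, 2 and 3. For lama4 it was 0.0605 without WT EOM 2 and 0.143, 0.109 and 0.118 without WT trunk 1, 2 and 3. For nid2a it was 0.0585 without WT trunk 3, and for hspg2 it was 0.0505 without WT EOM 2. For col4a1 it was 0.0886 and 0.116 without WT EOM 1 and 2, and 0.0661 and 0.0931 without WT trunk 1 and 2. For thbs2b, leaving out the same 4 libraries gave 0.108, 0.148, 0.116 and 0.0817.

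Markers of other cells moved with tissue too, and their counts stand against the 13.8% of all genes that were higher and the 13.1% that were lower in trunk. The tendon genes tnmd and scxa rose in WT trunk by 2.70 and 2.10 on the log2 scale (adjusted p = 0.00205 and 0.00248). Of 8 tendon list genes tested, 4 were higher in trunk and 1 lower. The summed level of the 9 found was 48.8 to 94.1 CPM in WT EOM and 416 to 444 CPM in WT trunk. In WT trunk tnmd and scxa averaged 19.2 and 3.46 CPM, so other genes of the list made up most of that sum. This list includes xirp2a, which muscle also expresses, and its sum is not read as a level of tendon. Of 14 endothelial genes, 6 were higher in trunk, with sums of 303 to 363 CPM in WT EOM and 468.5 to 629.9 CPM in WT trunk. Of 12 fibroblast genes, 2 were higher and 6 lower, with sums of 177.5 to 204 CPM against 84.0 to 110.6 CPM. Of 16 leukocyte genes, 9 were lower, with sums of 436 to 646 CPM against 179 to 210.1 CPM. In each of these lists no marker was at 0 in either WT group. Their part in the matrix differences was not tested.

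In the desma-/-;desmb-/- fish, 4 of 43 matrix genes differed between trunk and EOM, all higher in trunk, or 9.3% against 6.57% of all genes tested (3.20% higher). They were postnb, postna, fmoda and col12a1a, each of which had also been called in WT, so they are 4 of the 16 WT calls and all 4 of the mutant calls. Of the 16 WT calls, 15 had the same sign in the mutant. The exception was hspg2, at -0.19 ± 0.67 in the mutant, where mutant trunk 2 read 5.84 CPM against 70.1 and 74.1 CPM in mutant trunk 1 and 3. How often WT calls among all genes kept their sign or were called again was not computed, so neither count is read as a trait of matrix genes. The difference between the tissue effects of the 2 genotypes passed the test for none of the 43 genes, as given below, so the smaller count in the mutant is not shown to be a smaller effect. The groups did not overlap for 11 genes that were higher and 4 that were lower in mutant trunk, against 23.0% of all genes (12.2% higher and 10.8% lower).

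The genes called in the mutant had larger SEs there than in WT. The SD of CPM is on another scale and depends on the level of a gene, so it is not set against these SEs. By the SD of CPM, postna was more spread in the mutant than in WT in both tissues, and postnb was less spread in both. For col12a1a and fmoda the SD was larger in mutant EOM and smaller in mutant trunk. The level of postnb was 22.5, 14.0 and 11.9 CPM in mutant EOM and 384.5, 433 and 221 CPM in mutant trunk, with no overlap and a log2 fold change of 4.53 ± 0.56 (adjusted p = 7.29e-05). It was 13.7, 6.025 and 14.5 CPM for postna in mutant EOM and 53.2, 114 and 53.3 CPM in mutant trunk, again apart, at 2.82 ± 0.53 (adjusted p = 0.00287). Both libraries numbered 2 lay at the ends of that gap, and without them together the log2 fold change was 1.91 ± 0.52 (adjusted p = 0.0296).

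For col12a1a the mutant EOM libraries read 16.0, 54.8 and 29.5 CPM and the mutant trunk libraries 129, 114 and 145 CPM. The groups were apart although mutant EOM 2 was high, and the log2 fold change was 1.99 ± 0.52 (adjusted p = 0.0271); without both libraries numbered 2 it was 2.58 ± 0.60 (adjusted p = 0.00914). Reads of fmoda numbered 3, 5 and 11 in mutant EOM and 50, 69 and 27 in mutant trunk, so trunk was above EOM in all libraries at low depth (log2 fold change 3.87 ± 0.95, adjusted p = 0.0179). Here too fmoda passed the expression filter only through trunk. Next in order came TNC (ENSDARG00000021948), at 1.83 ± 0.54 with an adjusted p of 0.0554. Its mutant trunk libraries read 16.45, 3.78 and 11.9 CPM against 2.46, 3.405 and 3.35 CPM in EOM, which barely stayed apart. Without mutant trunk 2, the low one, its log2 fold change was 2.21 and its adjusted p 0.00113.

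These mutant calls leaned on single libraries. Only postnb passed without mutant EOM 1, where postna reached an adjusted p of 0.0517, col12a1a 0.143 and fmoda 0.137. Only postna and postnb passed without mutant EOM 3, where col12a1a had 0.111 and fmoda 0.0751. The fmoda call was also lost without mutant EOM 2 (0.0879) and without mutant trunk 2 (0.0641). Scaling by library totals alone shifted the median log2 fold change of all genes to -0.86 and left postnb as the only one of the 4 that passed, still higher in trunk.

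**Figure D3:**
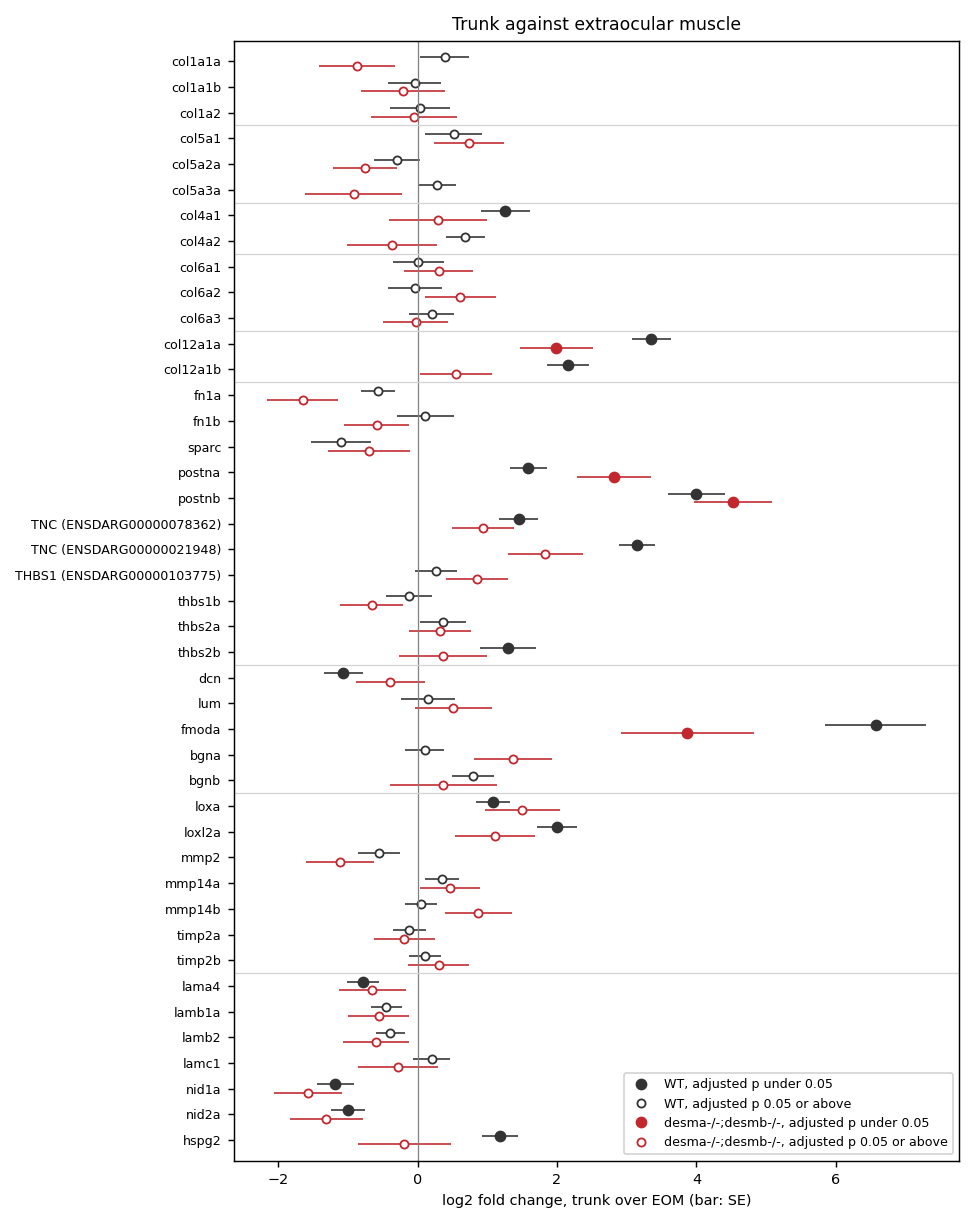
Log2 fold change of trunk over EOM for the 43 matrix genes tested, in WT (black) and desma-/-;desmb-/- (red), with bars for the SE; filled points have an adjusted p under 0.05. The filled points on the right are led by fmoda, postnb and col12a1a, and those on the left are dcn, lama4, nid1a and nid2a in WT.

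The comparison of genotypes within a tissue asked whether loss of desmin came with a change in matrix genes. In EOM, none of the 42 matrix genes tested passed the threshold, against 0.303% of all genes (57 of 18804). At an unadjusted p under 0.05 there was 1 in edgeR, col12a1a, against 5.37% of all genes. DESeq2, which called 0.665% of all genes, gave none adjusted and 3 unadjusted. The share of all genes at the unadjusted threshold was taken in the main edgeR fits alone, so unadjusted counts from other fits cannot be weighed. The median log2 fold change of the matrix genes was 0.13, against 0.03 over all genes. Since the EOM libraries of the same number varied together, the fit with that number as a block is also given. It called 582 genes in all (3.1%) and still none of the matrix genes. In that fit 5 matrix genes had an unadjusted p under 0.05, with no share of all genes taken.

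The 5 genes with the smallest unadjusted p were col12a1a, mmp14b, timp2a, postna and fn1a, and their adjusted p-values were 0.811 to 0.999. The col12a1a values given above put mutant EOM 2 and 3 above all WT libraries and mutant EOM 1, at 16.0 CPM, among them. Its log2 fold change was 1.06 ± 0.46, and 0.51 without mutant EOM 2. The membrane protease gene mmp14b read 11.15, 9.39 and 15.6 CPM in WT EOM and 4.39, 4.71 and 9.88 CPM in mutant EOM. Mutant EOM 3 overlapped the WT range, and the log2 fold change was -0.92 ± 0.45. Within each same-numbered pair the mutant was lower, and with the replicate block it was -1.0 ± 0.33 (adjusted p = 0.0642).

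Of the 42 genes tested, timp2a (higher) and postna (lower) had groups that did not overlap in EOM, against 11.0% of all genes (4.05% higher and 6.91% lower). The metalloprotease inhibitor gene timp2a read 21.05, 19.3 and 27.55 CPM in WT and 58.45, 32.0 and 32.0 CPM in the mutant, so that mutant EOM 1 was the highest (log2 fold change 0.85 ± 0.44). For postna, mutant EOM was lower than WT in every library, by -0.75 ± 0.44, or -0.44 without mutant EOM 2. The level of fn1a was 50.6, 128 and 70.6 CPM in mutant EOM, high in mutant EOM 2, at 0.77 ± 0.46 and 0.32 without that library.

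Mutant EOM 2 was also high in collagen I. The summed collagen I level was 839.8, 3059 and 1032 CPM in mutant EOM, so that 1 library stood near 3-fold above the others while the remaining pair fell among the WT libraries or below them. The 3 log2 fold changes were 0.34 to 0.63, with the largest for col1a1a, at 0.63 ± 0.54, which became -0.07 without mutant EOM 2. Collagen VI ran from -0.44 to -0.09, and the 7 laminin, nidogen and perlecan genes ran from -0.29 to 0.51. None of these passed. Leukocyte markers, 18 genes in all, summed to 436 to 646 CPM in WT EOM and 597 to 1936 CPM in mutant EOM, and to 179 to 210.1 CPM in WT trunk and 355 to 524 CPM in mutant trunk. Mutant EOM 3 overlapped WT EOM while the trunk groups were apart, and the part of these cells in the genotype values was not tested.

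In trunk, none of the 43 matrix genes tested passed either, against 0.0333% of all genes (6 of 18041). At an unadjusted p under 0.05 there were 3 in edgeR, THBS1 (ENSDARG00000103775), col12a1b and timp2a, against 13.1% of all genes. DESeq2, which called 614 of all genes (3.4%), called 1 matrix gene, THBS1. It had 4 matrix genes at an unadjusted p under 0.05, with no share of all genes taken. The median log2 fold change of the matrix genes was -0.17, against -0.03 over all genes, and -0.31 without WT trunk 3. Groups did not overlap for 2 genes that were higher in the mutant and 4 that were lower, against 26.9% of all genes (12.4% higher and 14.5% lower). Among 10 cartilage list genes tested in trunk none passed. An unadjusted p under 0.05 was reached by 5 of them in edgeR, against 13.1% of all genes, and their median log2 fold change was -2.41. The summed level of the 16 found was 146 to 230 CPM in mutant trunk, against 38.5 to 125 CPM in WT trunk. The sum and the median thus went in opposite directions. A sum follows the most abundant genes of a list, so it is not read as a level of cartilage. The part of cartilage in the matrix values was not tested.

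Thrombospondin 1 is a matricellular protein that activates latent TGF-beta. The gene listed as THBS1 read 44.0, 33.6 and 36.7 CPM in WT trunk and 97.5, 62.8 and 85.7 CPM in mutant trunk. All 3 mutant libraries were above all WT libraries, and the log2 fold change was 1.1 ± 0.23 (unadjusted p = 0.00163, adjusted p = 0.171). Without mutant trunk 2, the lowest of the mutants, it was 1.25 and passed (adjusted p = 0.0188), in a fit that called 251 of all genes (1.32%), and DESeq2 gave 1.09 (adjusted p = 0.00205). Over the other alternatives the log2 fold change ranged down to 0.64. In EOM the same gene read 23.3, 23.8 and 49.5 CPM in WT and 36.15, 48.3 and 57.0 CPM in the mutant. Those groups overlapped through WT EOM 3, and the log2 fold change was 0.56 ± 0.45. Within each same-numbered pair the mutant was higher, at 0.62 ± 0.32 with the replicate block (adjusted p = 0.381).

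Its copy thbs1b did not pass in trunk, where it read 17.7, 17.02 and 6.86 CPM in WT and 9.95, 5.915 and 8.655 CPM in the mutant. The groups overlapped through WT trunk 3, and the log2 fold change was -0.76 ± 0.39 (adjusted p = 0.441). As a share of the reads of the pair, thbs1b took 28.7, 33.6 and 15.8% in WT trunk and 9.3, 8.6 and 9.2% in mutant trunk. In EOM it took 37.3, 37.0 and 26.4% in WT and 21.5, 22.2 and 22.4% in the mutant. The mutant share was thus below the WT share in every library of both tissues. With 3 libraries against 3, an exact two-sided permutation test cannot go below p = 0.1, which both comparisons reached. In EOM a pairing of same-numbered libraries was inferred from correlations between them, and the labels state none. Taken as such pairs, the smallest exact p is 0.25, so neither test could pass. Of the 10 pairs of copies compared in this way, 3 separated the genotypes in EOM and 5 in trunk, with no share over other pairs of copies taken. The thbs1 pair was chosen for description after its values were seen.

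The next genes in trunk were col12a1b, timp2a and TNC (ENSDARG00000021948). The level of col12a1b was 11.9, 3.94 and 11.5 CPM in mutant trunk, each below the lowest WT trunk library, at -1.16 ± 0.46 (adjusted p = 0.363); without mutant trunk 2 it was -0.80. The level of timp2a was 23.3, 23.6 and 14.8 CPM in WT trunk and 29.6, 42.2 and 27.1 CPM in the mutant, higher in every mutant library, at 0.68 ± 0.27 (adjusted p = 0.363). Without mutant trunk 2 its log2 fold change was 0.45, and without WT trunk 3 it was 0.50. For TNC (ENSDARG00000021948) the log2 fold change was -1.02 ± 0.49 (adjusted p = 0.421), and -0.62 without mutant trunk 2.

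The collagen IV chains and perlecan had the lowest reading in mutant trunk 2. The level of col4a1 was 102.8, 6.32 and 97.1 CPM in mutant trunk, and hspg2 read 70.1, 5.84 and 74.1 CPM. In both genes mutant trunk 2 was more than 10-fold below its group, while the other 2 libraries were just below the WT trunk range. The log2 fold changes were -1.12 ± 0.83 for col4a1 and -0.88 ± 0.75 for hspg2, and -0.58 and -0.35 without mutant trunk 2. For col4a2 and lamc1 they were -0.95 and -0.40, and -0.42 and 0.03 without that library. In mutant trunk 2 the endothelial marker sum was 355.5 CPM, the lowest of the trunk libraries, against 423 and 441.5 CPM in mutant trunk 1 and 3. Its share of unmapped reads was the highest of all, 14.82%. In mutant trunk 3 that share was 14.25%, with col4a1 at 97.1 CPM and hspg2 at 74.1 CPM. The part of the endothelial sum or of unmapped reads in these values was not tested.

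**Figure D4:**
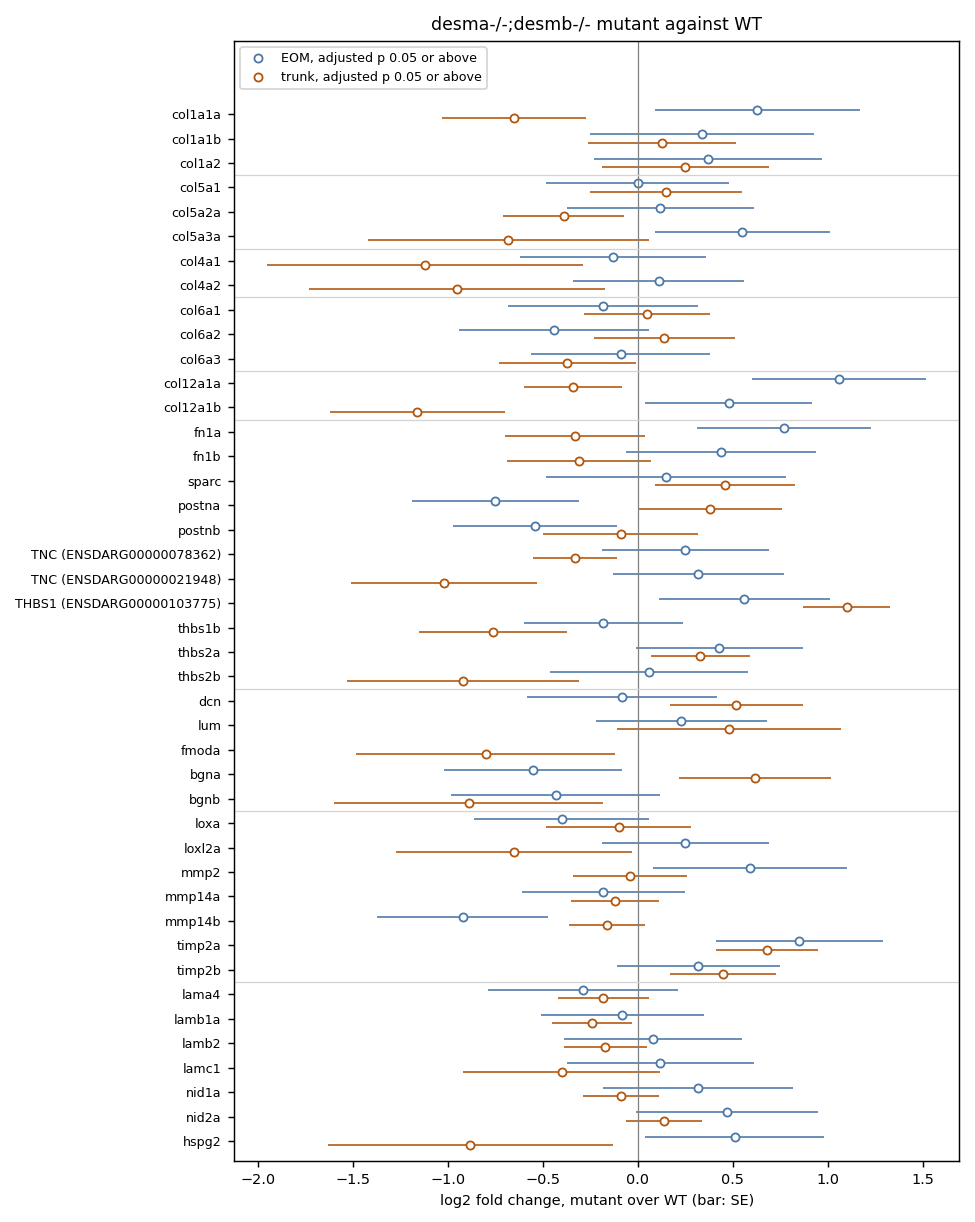
Log2 fold change of desma-/-;desmb-/- over WT for the matrix genes tested in EOM (blue, 42 genes) and trunk (brown, 43 genes), with bars for the SE. All points are open because no gene had an adjusted p under 0.05; THBS1 (ENSDARG00000103775) in trunk, at 1.1, lies farthest from 0 relative to its SE.

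The difference of the genotype effects, trunk minus EOM, was tested in a fit of all 12 libraries. None of the 43 matrix genes passed, against 0.00998% of all genes (2 of 20041). DESeq2, which called 0.0649% of all genes, gave none adjusted and 5 unadjusted, with no share of all genes taken for the latter. In edgeR 4 had an unadjusted p under 0.05, against 4.43% of all genes. The 4 were col12a1b at -1.63 ± 0.60, col12a1a at -1.39 ± 0.55, fmoda at -2.81 ± 1.12 and TNC (ENSDARG00000021948) at -1.34 ± 0.60, all with an adjusted p of 0.934. Each is a gene whose WT level was higher in trunk, and in each the mutant effect was lower in trunk than in EOM. The same WT libraries enter both values, so these directions are not independent and no pattern is read from them. The fmoda value rested on few EOM reads, 0, 3 and 2 in WT and 3, 5 and 11 in the mutant. The filter left that gene out of the EOM genotype test, and its genotype log2 fold change in trunk was -0.80 ± 0.68 (adjusted p = 0.596). The col12a1a value rested on mutant EOM 2, and was -0.75 without both libraries numbered 2. For fmoda and col12a1b the value was then -3.37 and -1.23. Next came the proteoglycan gene bgna, at 1.15 ± 0.58, which moved to 0.67 without those libraries.

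The division of reads within pairs of gene copies was also compared between the tissues. The ratio of postnb to postna reads, which like the ratios below is not corrected for gene length, was 1.17, 1.15 and 1.30 in WT EOM and 8.18, 6.48 and 4.40 in WT trunk. All trunk libraries were higher, and in the mutant the ratios were 1.64, 2.33 and 0.819 in EOM and 7.23, 3.80 and 4.14 in trunk, again without overlap. Between the TNC genes, ENSDARG00000021948 took 12.4, 20.7 and 24.0% of the pair's reads in WT EOM and 44.1, 40.8 and 39.8% in WT trunk. In the mutant it took 10.9, 24.9 and 25.5% in EOM and 37.5, 16.6 and 31.6% in trunk. Those groups overlapped only through mutant trunk 2, at 16.6%. Of the 10 pairs, 4 separated the tissues in WT and 4 in the mutant, at the exact p of 0.1 that is the smallest possible. No share over other pairs of copies was taken. By level, the tissues did not overlap for 44.7% of all genes in WT and 23.0% in the mutant. The counts of pairs are thus not read as a result about these pairs.

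**Figure D5:**
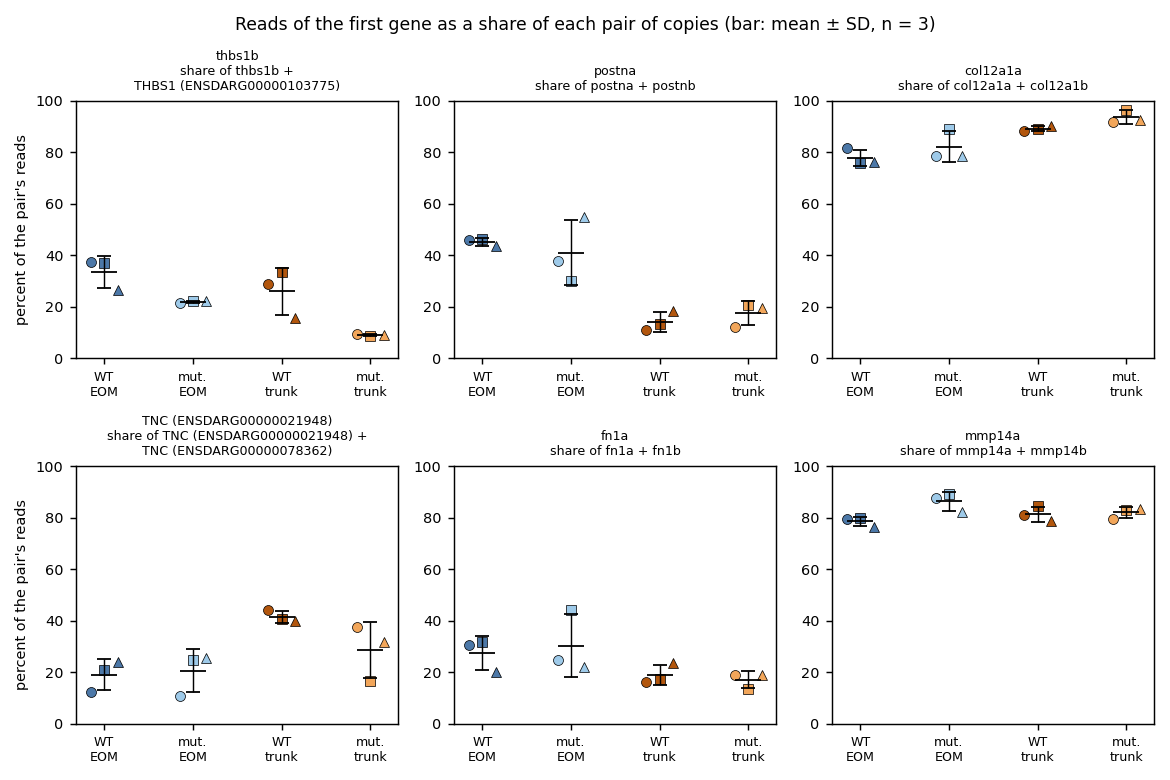
Reads of the named gene as a percentage of the reads of each pair of copies, for 6 pairs in the 4 groups, with 1 point per library (circle, square and triangle for replicates 1, 2 and 3) and bars for the mean ± SD (n = 3). The thbs1b share is lowest in mutant trunk, at 8.6 to 9.3%, and the postna share is 10.9 to 20.9% in trunk against 30.0 to 55.0% in EOM.

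Chains of the same collagen varied to different degrees. The ratio of col1a2 to col1a1b reads, chains that assemble together, was between 0.823 and 1.1 in all 12 libraries, even where mutant EOM 2 was high. The ratio of col6a2 to col6a1 was 0.661 to 0.744 in WT EOM and 0.656 to 0.719 in WT trunk, and overlapped. In mutant trunk, however, col6a3 over col6a1 was 0.583, 0.247 and 0.694, lowest in mutant trunk 2, against 0.617 to 0.775 in WT trunk. There col1a1a over col1a1b was 0.348, 0.19 and 0.497, below the 0.52 to 0.564 of WT trunk in every library. In collagen IV, col4a1 over col4a2 was 0.743, 0.55 and 0.89 in WT EOM and 1.19, 1.11 and 1.05 in WT trunk, higher in every trunk library. None of these chain ratios was tested. In the mutant the same ratio was 0.463, 0.49 and 0.84 in EOM and 1.1, 0.855 and 0.921 in trunk, apart by a narrow margin, with mutant trunk 2 the lowest of the trunk libraries.

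Matrix genes outside the 44 were read from 10 lists of further collagens, basement membrane genes, proteoglycans, elastic fibre genes, processing enzymes, proteases, receptors and TGF-beta targets, of which 218 genes were found. In WT, 78 of 187 tested differed between trunk and EOM (41.7%, against the 27.0% of all genes), 45 higher and 33 lower in trunk. Those higher in trunk included the fibrillar collagen gene col11a1b, at 6.56, 5.73 and 9.22 CPM in EOM against 88.9, 71.1 and 26.5 CPM in trunk (log2 fold change 3.13, adjusted p = 0.000642). The glycoprotein gene matn4 and the fibril-associated collagen gene col21a1 rose by 3.53 and 2.89, and the basement membrane collagen genes col4a5 and col18a1a by 3.07 and 1.89. The laminin receptor gene dag1 rose by 1.55 and the procollagen protease gene bmp1b by 1.71.

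Of 14 elastic fibre genes tested, 5 were lower and 1 was higher in trunk, against 13.1% and 13.8% of all genes, and the group as such was not tested. The fibulin gene fbln5 read 37.3, 34.4 and 32.1 CPM in WT EOM and 4.56, 5.35 and 4.17 CPM in WT trunk, far apart, at -2.87 (adjusted p = 1.96e-05). The microfibril gene mfap5 and the fibulin gene efemp2a were at -1.93 and -1.27. The calcification inhibitor gene mgp was at -4.40, the procollagen C-proteinase enhancer gene pcolcea at -3.07 and the transglutaminase gene tgm2b at -2.02. The corneal proteoglycan gene kera read 2.9, 1.88 and 3.33 CPM in WT EOM and at most 0.0541 CPM in WT trunk, too few reads for a fold. Retinal markers summed to 15.85 to 35.55 CPM in WT EOM and 2.175 to 2.27 CPM in WT trunk, and the part of other eye tissue in these values was not tested.

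In the mutant, 28 of 182 of these genes differed between the tissues (15.4%, against the 6.57% of all genes), 15 higher and 13 lower in trunk, led by matn4 at 4.42, thbs4a at 4.2, dpt at 4.68 and elnb at -4.22. Between genotypes, 1 of 187 passed in EOM (0.535%, against 0.303% of all genes) and none of 177 in trunk, where 23 had an unadjusted p under 0.05 in edgeR, against 13.1% of all genes. For the difference of the effects none of 194 passed and 12 had an unadjusted p under 0.05, against 4.43% of all genes. The gene that passed in EOM was thbs4a, a thrombospondin of the muscle-tendon attachment. It read 7.6, 14.1 and 7.24 CPM in WT EOM and 2.24, 1.098 and 3.04 CPM in mutant EOM, lower in every mutant library, with a log2 fold change of -2.18 ± 0.49 (adjusted p = 0.0467). The call was lost without WT EOM 2, mutant EOM 1 or mutant EOM 2 (adjusted p = 0.28, 0.764 and 0.232) and with limma-voom, unstranded counts or library totals (adjusted p = 0.0759, 0.0514 and 1). It held with the replicate block (adjusted p = 7.78e-07), in a fit that called 3.1% of all genes. That block rests on a pairing inferred from these same data, so its small p-value is not read as stronger support. In trunk thbs4a read 25.8, 17.1 and 17.8 CPM in WT and 35.3, 39.4 and 35.4 CPM in the mutant, higher in every mutant library, but did not pass there (log2 fold change 0.86 ± 0.22, adjusted p = 0.235). The difference of its genotype effects was 3.03 ± 0.54 in edgeR and did not pass (adjusted p = 0.246). With DESeq2, which called 0.0649% of all genes, that difference was 3.02 and passed (adjusted p = 0.00077).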

How the data were processed

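Libraries were made from poly(A)-selected RNA with a stranded kit, per the labels' protocols. The values are raw read counts per gene as the authors deposited them in STAR tables, and the submitters' processing notes name STAR, DESeq2 and the GRCz11 build without versions. The column counted on the gene strand was used, which held 96.43 to 97.26% of stranded reads; unmapped reads were 7.08 to 14.82% and stayed out of all tests.

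Comparisons used edgeR 4.0.16 in R 4.3.3: TMM scaling, filterByExpr (minimum count 10, minimum total 15) and the robust quasi-likelihood test with Benjamini-Hochberg adjustment over all genes kept, at an adjusted p of 0.05. Each comparison of groups was fitted on its own 6 libraries, and the difference of the genotype effects on all 12. SEs were derived from each gene's log2 fold change and its F statistic (size of the first divided by the root of the second). CPM were scaled by TMM over 20041 genes kept in the 12 libraries. Counts carry no molecular identifiers, and reads that copies of a gene share may be split between them.

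Symbols came from a name table that covered 29201 of 32520 gene IDs. Where it gave a capitalised symbol, the zebrafish copy was chosen by the chromosome of 20 neighbours on each side of the gene in the deposited order, at least 60% of them on 1 chromosome, using RefSeq GRCz12tu for names only. On copies with a known name this gave the right name for 2186 of 2247 (97.3%), no wrong name, and none for 61. Of the 44 matrix genes, 33 were named so, 8 by the table and 3 kept their capitals.

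The members and all gene lists were chosen with earlier results of these data known. Genes are named where they passed in a comparison or, where fewer than 5 passed, had the smallest unadjusted p; copy pairs, chain ratios and genes of the other matrix lists were also described after their values were seen. Alternatives were another size factor, library totals, no filter, DESeq2 1.42.0, limma-voom 3.58.1, unstranded counts, a replicate block, 1 fit of all libraries, leaving out each library, and, added after seeing the data, leaving out both mutant libraries numbered 2. Whether numbers pair libraries was checked by correlating the deviations of same-numbered libraries from their group means. In EOM these correlations were 0.477, 0.452 and 0.724, which was taken as paired. Different-numbered EOM libraries gave -0.691 to 0.325, and the labels state no pairing. The fitting script was tested on simulated data.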

Additional observations from a re-analysis of the deposited data

How the results depend on the processing

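No value changed sign past the threshold under any alternative run. In EOM and for the difference of the genotype effects the count of matrix genes called was 0 under every alternative, the replicate block that pairs the EOM libraries included. Shares of all genes called in the same fit are in brackets. In trunk the genotype count was 1 with DESeq2 (3.4%). It was 0 to 1 when 1 library was left out, the 1 being THBS1 without mutant trunk 2 (1.32%). Between tissues in WT the count fell to 9 in 1 fit of all 12 libraries (9.82%). It was 13 with library totals (22.6%) and 12 to 20 when 1 library was left out (15.6 to 39.5%). In the mutant it was 7 without the filter (6.45%), 7 with DESeq2 (9.65%) and 8 in 1 fit of all 12 libraries (11.5%). It was 3 with limma-voom (5.92%) and 1 to 5 when 1 library was left out (2.72 to 8.58%). Without both mutant libraries numbered 2, an alternative added after seeing the data, it was 5 (6.89%). Of those, 4 were among the 4 of the full set. Scaling by library totals moved the median log2 fold change of all genes to -0.5 for genotype in trunk, -0.43 for tissue in WT and -0.86 for tissue in the mutant, and in the last left 1 matrix gene higher and 3 lower in trunk. The cause of these changes was not tested.

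Outside EOM the replicate numbers did not pair the libraries: correlations were 0.023 to 0.052 between genotypes in trunk, -0.233 to 0.097 between tissues in WT and -0.11 to 0.591 in the mutant. With the replicate block the matrix counts were 14 between tissues in WT (22.2% of all genes called) and 5 in the mutant (7.52%). For genotype in trunk the matrix count was 0, and the count over all genes went from 6 to 0. In EOM the block changed no call of a matrix gene. Genes with few reads, such as fmoda in EOM, were limited by depth, and no fold below the 3-read floor could be read.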

Other observations

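The matrix glycoprotein gene prg4a, which encodes the lubricant lubricin, lay outside the matrix genes described above and was chosen after its values were seen. It read 11.63, 13.27 and 9.315 CPM in WT EOM and 0.9276, 1.459 and 1.173 CPM in mutant EOM, so that every mutant library was far below every WT library. Its log2 fold change was -3.27 ± 0.47 (SE, adjusted p = 0.000436). Without mutant EOM 1, where no gene at all passed in EOM, it was -3.11 (adjusted p = 0.0834), and with library totals alone it was -3.31 (adjusted p = 0.322). The difference of the genotype effects, trunk minus EOM, was 4.4 (adjusted p = 0.00308), which made it 1 of the 2 genes of 20041 that passed that test. It still passed when any 1 library was left out, with an adjusted p of at most 0.0422, but not with library totals alone (adjusted p = 0.242). In trunk prg4a did not pass in edgeR (log2 fold change 1.13, adjusted p = 0.281). It passed there with DESeq2 (1.12, adjusted p = 0.045), which called 3.4% of all genes.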
